A study of Mus musculus with 16 samples.

Results

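The genes examined were 10 that a cell uses to show protein fragments to T cells. They were taken by symbol: H2-AA, H2-AB1, H2-EB1, H2-DMA and CD74 of the class II pathway, H2-K1, H2-D1 and B2M of class I, and TAP1 and PSMB8, which supply peptides to class I. All rows of the expression table that carry one of these symbols were used. They gave 9 of the 10 genes, and the expression of H2-D1 was not analysed here. These 9 genes had 14 probes among the 25697 of the table, and 13 of the 14 passed the signal filter that left 16848 probes for 12426 symbols. The remaining B2m probe was above background on 0 of 16 arrays and was not tested.

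Total RNA of mouse fallopian tubes was measured on Illumina bead arrays, with 4 arrays in each of 4 groups. The mice were hormonally untreated, immature C57BL/6N females 3.5 to 5 weeks old. Their tubes, cleared of fat, ligament and vessels, were opened, cut up and kept in a dish, in the progesterone groups with 100 nmol/L progesterone for 20 min or 2 h and in the control groups with the ethanol vehicle for the same times. Ethanol was in the medium of all 4 groups at 0.01%. Each array held the RNA of a pool of 6 tubes, so a value describes a pool and not a mouse, and since pools held several animals the p-values describe the spread between pools. A control and a progesterone sample that share a code formed a pair. The pairs of 20 min were coded 27n, 26n, 12n and 22ob, and those of 2 h were coded 6d, 19n, 30o and 15o. No pair spanned both times, so time in the dish cannot be told apart from the set of samples. Whole tubes hold epithelium, smooth muscle, stroma and resident leukocytes, and in such bulk RNA fewer cells of a type and less RNA per cell cannot be told apart.

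Class II molecules are pairs of an alpha and a beta chain that carry peptides from taken-up proteins and are made mainly by dendritic cells, macrophages and B cells. Cd74, the invariant chain, escorts them and blocks their groove until H2-DM helps exchange its last fragment for a peptide. Class I molecules are made by nearly all nucleated cells and consist of a heavy chain such as H2-K and the small chain B2m, and they carry peptides that the immunoproteasome, of which Psmb8 is a subunit, cuts and that Tap1 pumps into the endoplasmic reticulum. Interferon-gamma raises most of these genes in many cell types.

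The bases just before the start of 4 of these genes are shown here. H2-Aa and H2-Eb1 are class II chains that spread between samples. B2m in both arms and Psmb8 in the controls alone had a probe that passed the test for time. In each arm 2 of 13 member probes did so, beside 11.3% of all probes in the controls and 15% with progesterone. Each run is the 160 bases before the gene's start in RefSeq on the mouse build GRCm38.p6, written 5′ to 3′ on the gene's strand. Capitals mark matches to the motifs CCAAT (Y box core), GAAA followed by any 2 bases and GAAA again (interferon response element core), TTCNNNGAA (STAT site) and GGGANTNCC (kappa B like), searched on both strands, so that ATTGG is CCAAT on the other strand. The H2-Aa run is chr17:34287824-34287983 on the minus strand, with GGGAGTTCC and ATTGG.
H2-Aa: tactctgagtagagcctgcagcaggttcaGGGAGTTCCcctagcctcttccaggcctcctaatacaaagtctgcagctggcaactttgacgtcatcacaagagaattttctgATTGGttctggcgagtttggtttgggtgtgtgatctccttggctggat
The H2-Eb1 run is chr17:34305707-34305866 on the plus strand, with ATTGG and CCAAT.
H2-Eb1: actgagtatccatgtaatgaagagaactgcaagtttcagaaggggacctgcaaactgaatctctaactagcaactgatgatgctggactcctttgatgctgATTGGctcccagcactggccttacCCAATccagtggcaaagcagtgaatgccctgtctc
The B2m run is chr2:122147527-122147686 on the plus strand, with GAAACTGAAA and ATTGG.
B2m: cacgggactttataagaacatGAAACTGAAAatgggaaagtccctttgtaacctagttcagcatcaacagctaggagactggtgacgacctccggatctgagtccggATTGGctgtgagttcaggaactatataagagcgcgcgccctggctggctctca
The Psmb8 run is chr17:34198035-34198194 on the plus strand, with TTCCCAGAA.
Psmb8: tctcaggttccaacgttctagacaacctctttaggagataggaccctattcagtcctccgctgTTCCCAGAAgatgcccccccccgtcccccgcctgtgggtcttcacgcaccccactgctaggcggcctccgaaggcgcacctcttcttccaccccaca
Promoter windows, of 250 bases before and 50 after the start, were matched by symbol for 8 of the 10 genes (10 windows, since H2-K1 and H2-DMa had 2 each), H2-D1 among them, and those of H2-Ab1 and Cd74 were not used here. CCAAT was in 8 of the 10 windows and in 37.4% of the 32851 promoters of the table, the interferon response element core in 1 and 3.44%, TTCNNNGAA in 1 and 8.3%, and GGGANTNCC in 4 and 3.95%. The 2 windows of H2-K1 share 286 of their bases, so the same matches count in both, and by gene CCAAT was in 7 of 8 and GGGANTNCC in 3 of 8. A longer consensus of the class II X box was matched exactly in 0 of the 10 windows and in 0.0183% of the promoters. Near matches were not counted, so nothing follows about an X box in these promoters. A match describes these letters and is no sign of binding.

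The arrays were alike in quality, with correlations of 0.968 to 0.996 between them and 13222 to 14267 probes above background at a detection p under 0.05. The tissue label was borne out by its markers, since Ovgp1, the oviductal glycoprotein of secretory cells, Foxj1, the regulator of motile cilia, and the smooth muscle actin Acta2 were above background on 16 of 16 arrays. A smooth muscle score, the mean over 8 marker genes of the log2 signal after subtraction of the gene's average, ran from -0.30 to 0.51 in the 20 min controls, from -0.09 to 0.54 in the 20 min progesterone samples, from -1.43 to 0.58 in the 2 h controls and from -0.95 to 0.50 in the 2 h progesterone samples. Its lowest values were those of the 15o control and the 19n progesterone sample, and the spread, likeness and progesterone values of class II are also given without these pairs. Markers of antigen-presenting cells were present: of the 26 symbols on the array, 21 passed the filter and 15 were above background on all 16 arrays. Among them were the monocyte and macrophage genes Cd14, Cd68, Csf1r, C1qa, C1qb and C1qc. Lysozyme was listed as Lyzs, Lyz2 and Lyz, and Lyzs is a former symbol of Lyz2, so this gene counts more than once, also in the score. The dendritic cell genes Itgax, Flt3, Xcr1 and Clec9a had no probe that passed the filter. Cd209a was above background on 1 array, Ccr7 on 5 and Zbtb46 on 13. The activation markers Cd83 and Cd86, which dendritic cells share with other cells, were above background on 16, but Cd80 on 2. Among further markers of this list Cd40 was above background on 16 arrays, Mertk on 15 and Fcgr1 on 11. Itgam had no probe that passed the filter. Of 13 lymphocyte markers 3 were above background on all 16 arrays.

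The class II genes differed widely between samples of the same group, and no class II probe passed the test in any comparison as fitted here, though H2-DMa did for time under other scalings. H2-Ab1, the beta chain of the I-A molecule, was measured by 3 probes, and values are log2 of the quantile-normalized signal intensity throughout. Probe 1 (ILMN_1226525) read 10.74, 10.25, 10.13 and 10.22 in the 20 min controls 27n, 26n, 12n and 22ob and 10.69, 10.39, 10.19 and 10.20 in their progesterone partners. At 2 h it read 10.71, 9.96, 10.35 and 9.71 in the controls 6d, 19n, 30o and 15o and 10.64, 9.57, 10.30 and 10.86 in their partners. All 4 groups overlapped, the pairs 27n and 6d were high in both arms, and the 15o pair held both a low control and the highest value of the 16. The other H2-Ab1 probes were also high in both samples of 6d and lowest in the 19n progesterone sample, with ranges of 8.70 to 10.02 and 8.38 to 9.51.

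H2-Aa, the alpha chain of the same molecule, read 9.22, 9.03, 9.04 and 9.03 in the 20 min controls and 9.35, 8.62, 8.71 and 8.97 in the progesterone samples, in the order of the codes given above. At 2 h its controls read 9.64, 8.56, 9.31 and 8.94 and its progesterone samples 9.38, 8.34, 9.17 and 9.64. The groups overlapped, with the control of 6d and the progesterone sample of 15o highest and the progesterone sample of 19n lowest.

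H2-Eb1, the beta chain of the I-E molecule, whose alpha chain gene is not expressed in the C57BL/6 background, read 10.25, 9.54, 9.43 and 9.55 in the 20 min controls and 9.85, 9.24, 9.76 and 9.64 in their partners. At 2 h the values were 9.92, 9.27, 9.71 and 9.21 in the controls and 10.25, 8.80, 9.62 and 10.06 with progesterone. Again 27n and 6d were on the high side and the progesterone sample of 19n was the lowest of the 16.

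Cd74, the invariant chain, had 2 probes. Probe 2 (ILMN_3089584) read 10.98, 10.61, 10.44 and 10.66 in the 20 min controls and 11.18, 10.61, 10.56 and 10.60 with progesterone. The 2 h values were 11.34, 10.40, 10.78 and 10.37 in the controls and 11.20, 9.72, 10.69 and 11.02 with progesterone. Cd74 was thus high in both samples of 27n and 6d, as the class II chains were, and probe 1 ranged from 9.88 to 11.28 with the same lowest and highest sample.

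H2-DMa, a chain of the H2-DM exchange factor, varied less, from 7.74 to 8.30 over the 16 arrays. It was highest in the 27n progesterone sample and lowest in the 19n progesterone sample.

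Among the class I genes, the heavy chain H2-K1 lay between 6.93 and 7.35 and was above background on 15 of 16 arrays. The light chain B2m read 12.48 to 13.09 with probe 1 (ILMN_1216746) and 12.34 to 13.30 with probe 2 (ILMN_2739999). Tap1, a subunit of the peptide transporter, ranged from 7.10 to 7.69 and Psmb8, the immunoproteasome subunit, from 7.13 to 7.81. H2-K1, Tap1 and Psmb8 thus lay little above the untested B2m probe (6.54 to 6.84). So near background, differences are compressed in signal without background subtraction.

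**Figure D1:**
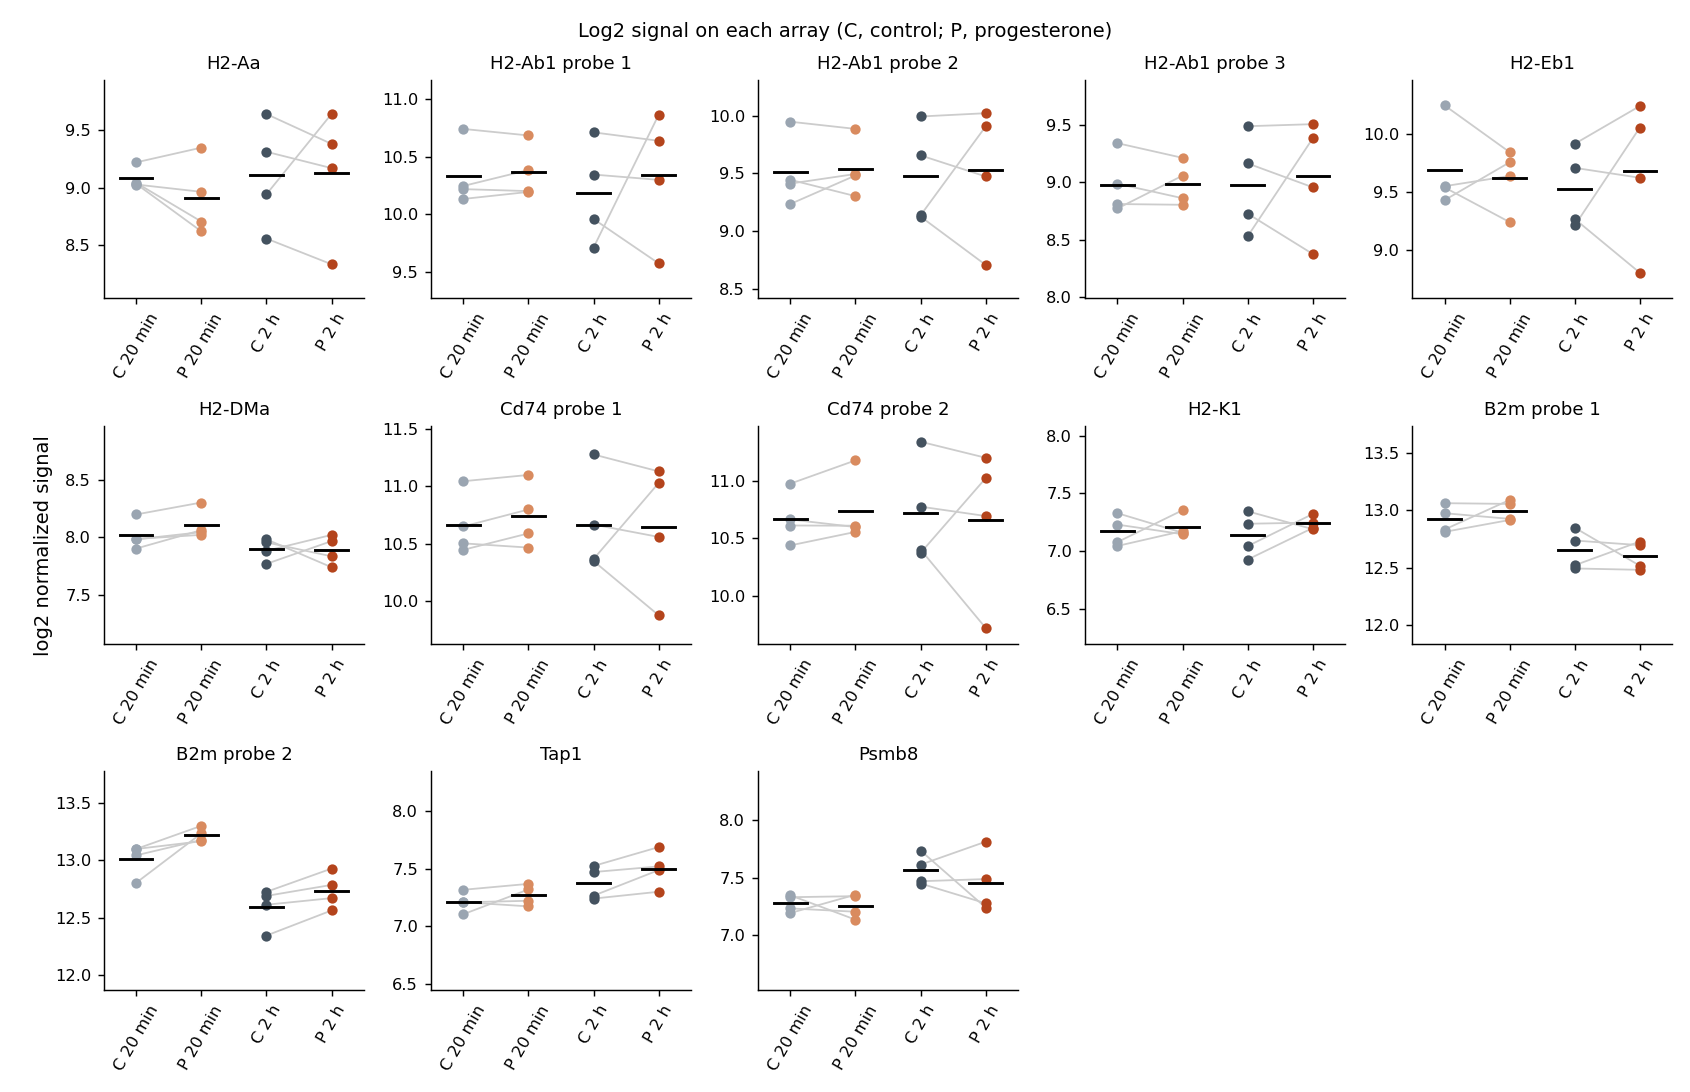
Log2 quantile-normalized signal of each of the 13 tested probes (vertical axes) in the 4 groups (horizontal axes; C, control; P, progesterone), each point 1 array, each black bar a group mean over 4 arrays and grey lines joining the samples of a pair. In the H2-Ab1, H2-Aa, H2-Eb1 and Cd74 panels the groups overlap and are widest in the 2 h progesterone samples, while both B2m probes lie lower at 2 h.

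The spread within groups set the 7 probes of the class II chains and Cd74 apart from the other members. Their pooled within-group standard deviation was 0.37 to 0.44 on the log2 scale, larger than that of 97.7% to 98.7% of the 16848 probes, whose median was 0.13. Compared with the 500 next brighter and 500 next dimmer probes it was larger than 94.5% to 97.2%. The other 6 member probes, including H2-DMa, had standard deviations of 0.12 to 0.16, larger than 46.1% to 69.3% of all probes. Among probes of like brightness they ranged more widely, from 22.1% for H2-DMa to 72.8% for H2-K1 and 82.5% for Psmb8. Without the pairs 15o and 19n the 7 class II probes came to 0.23 to 0.33, larger than 88.9% to 97.0% of all probes, so these pairs carried part of the spread. The other 6 came to 0.11 to 0.17 without them. H2-K1, Tap1 and Psmb8 among these lay near background, where spread is compressed.

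The class II genes also rose and fell together from sample to sample. After each group's mean was subtracted, the 21 pairs among the 7 probes correlated at 0.84 to 0.97 over the 16 arrays (Pearson, median 0.94). This describes samples that share arrays and pools and was not tested. Some of these pairs join probes of the same gene, H2-Ab1 at 0.95, 0.95 and 0.97 and Cd74 at 0.97. Pairs of different genes ran from 0.84 (H2-Aa and H2-Eb1) to 0.97 (H2-Ab1 probe 2 and Cd74 probe 2). H2-DMa followed the 7 probes at 0.53 to 0.73. The class I and peptide supply probes did so little, with 35 pairs between -0.11 and 0.33. Since H2-K1, Tap1 and Psmb8 lay near background, their low values say little about how these genes moved. Without the pairs 15o and 19n the 12 remaining arrays gave 0.62 to 0.96 among the class II probes, with a median of 0.87, and -0.31 to 0.59 between these and the class I and peptide supply probes. Without pair 6d the latter were -0.63 to 0.17. Among themselves the class I and peptide supply probes correlated at -0.40 to 0.64 over 16 arrays, with a median of 0.07. The 2 B2m probes correlated at 0.64 with each other, and at -0.26 (probe 1) and 0.09 (probe 2) with H2-K1.

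**Figure D2:**
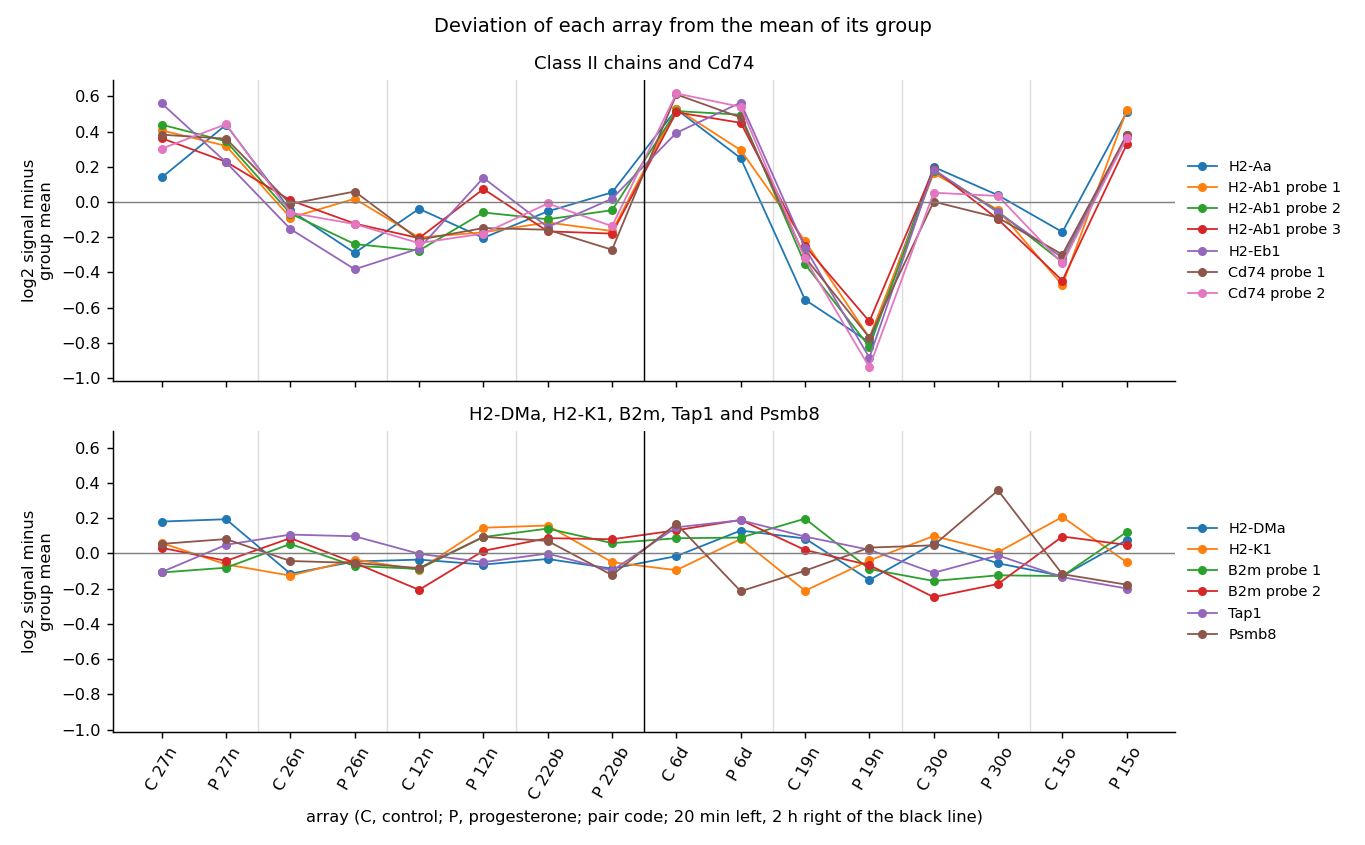
Log2 signal minus the group mean (vertical axes) on each of the 16 arrays (horizontal axis, in pairs; C, control; P, progesterone), with 1 line per probe, class II chains and Cd74 above and the other 6 probes below. The class II lines run together, high in both samples of 27n and 6d and in the 15o progesterone sample and lowest in the 19n progesterone sample, while the lower lines stay closer to 0.

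**Figure D3:**
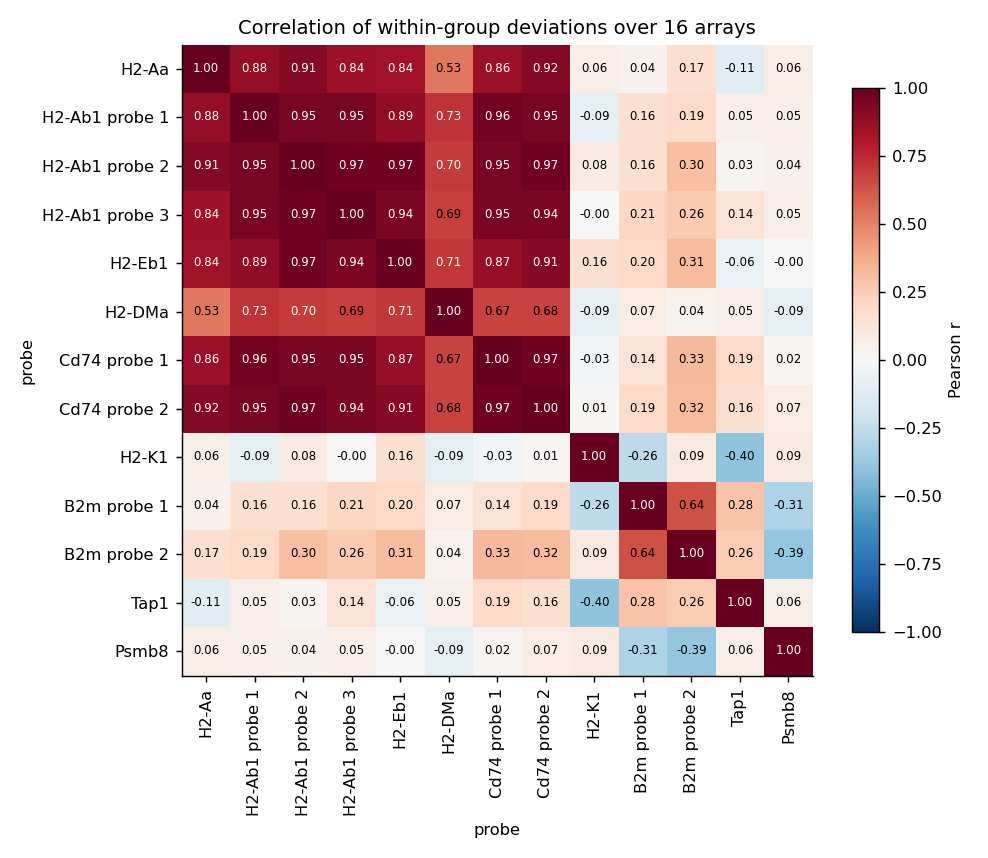
Pearson correlation (colour and printed value) between the 13 probes over 16 arrays, after subtraction of each group's mean. The 7 probes of the class II chains and Cd74 form a block of 0.84 to 0.97, H2-DMa joins it at 0.53 to 0.73, and the class I and peptide supply probes lie between -0.11 and 0.33 with it.

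Averaged over the 8 class II probes including H2-DMa and scaled to each probe's standard deviation, the profile was highest in the control and progesterone samples of 6d (1.25 and 1.20) and 27n (1.09 and 1.03) and in the progesterone sample of 15o (1.07). The lowest values were those of the 19n progesterone sample (-2.10) and the 15o control (-0.97). The 5 other probes most like this profile over 16 arrays were LOC641240 (r = 0.94), described in the table as similar to a class II beta chain, Lass4, a ceramide synthase (0.92, above background on 0 arrays), Batf, a transcription factor (0.91, above background on 8), Ifngr1, the ligand-binding chain of the interferon-gamma receptor (0.91), and Sspn, a membrane protein of muscle (0.90). Lass4 and Batf thus lay at or near background, and the other 3 were above it on all 16 arrays. Without the pairs 15o and 19n the 5 values were 0.92, 0.76, 0.82, 0.86 and 0.86 over 12 arrays. The class I profile averaged H2-K1 and both B2m probes, although H2-K1 did not move with B2m. The 5 other probes most like it were Aars (0.89), an aminoacyl-tRNA synthetase, Hmgb2l1 (0.87, above background on 2 arrays), Asah3l (0.86), Ube2l3 (0.83), a ubiquitin-conjugating enzyme, and Pml (0.82), the organizer of nuclear bodies. Without these pairs they were 0.91, 0.92, 0.89, 0.86 and 0.83. For both profiles the 5 probes were picked for the highest r among all probes on these same arrays. High values follow from that choice, and those without the pairs are no independent check.

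Marker scores of several cell types moved with the class II profile across the 16 arrays, among 13 lists compared. The score of antigen-presenting cells had r = 0.75 (Spearman's rho 0.78), pan-leukocyte markers 0.65 (0.69), smooth muscle markers 0.75 (0.70) and secretory epithelium markers -0.86 (-0.87). Fat markers (4 genes) had r = 0.59 (0.44) and the other peptide supply genes -0.59 (-0.54). Without the 2 arrays farthest from the median of each score, these 6 values became 0.73, 0.67, 0.66, -0.81, 0.45 and -0.30 over 14 arrays. Within the 20 min arrays they were 0.49, 0.48, 0.58, -0.73, 0.78 and 0.19, and within the 2 h arrays 0.82, 0.76, 0.79, -0.91, 0.52 and -0.85. The fat score was -0.16 in the 15o control and 0.86 in its progesterone partner. Lymphocyte markers had r = 0.11, with 0.49 within the 20 min arrays and -0.01 within the 2 h arrays, and ciliated cell markers -0.14. Since the arrays share 1 normalization and a gain in one tissue lowers the share of another, the part of any cell type in the class II spread was not tested.

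Whether progesterone changed these genes within 20 min was tested in the 4 pairs of that time. None of the 13 probes reached an adjusted p at or under 0.20 (limma, Benjamini-Hochberg over 16848 probes), and over all probes the share called was 0%, with 847 probes at an unadjusted p under 0.05. B2m probe 2 read 13.04, 13.10, 12.80 and 13.10 in the controls and 13.18, 13.16, 13.23 and 13.30 with progesterone. It was higher in 4 of 4 pairs and the groups did not overlap, as was so for 1 of 13 member probes and for 1.64% of all probes, with a log2 difference of 0.21 (SE 0.07, 95% interval 0.05 to 0.37, limma adjusted p = 0.948, unadjusted p = 0.0155). B2m probe 1 differed by 0.08 (95% interval -0.08 to 0.23) and was higher in 2 of 4 pairs, so the 2 probes of the gene gave different sizes.

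H2-DMa was also higher in 4 of 4 pairs, by 0.09 (95% interval -0.04 to 0.22). Thus 2 of 13 member probes were higher in all 4 pairs, against 6.26% of all probes, and 0 were lower in all 4, against 6.65%. H2-Aa had the lowest value, a log2 difference of -0.17 (95% interval -0.37 to 0.03), lower in 3 of 4 pairs. The median over the 13 probes was 0.04, against 0.00 over all probes, and their standard errors were 0.06 to 0.11.

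At 2 h, again none of the 13 probes was called, while over all probes 1 was (0.00594%) and 437 had an unadjusted p under 0.05. The lowest adjusted p among the members was 0.9997 (limma). The 4 pairs went different ways in the class II genes. H2-Ab1 probe 1 was higher with progesterone by 1.15 in 15o and lower in 6d, 19n and 30o, with differences of -0.07, -0.39 and -0.05. Cd74 probe 2 did the same, with 0.65 in 15o and -0.14, -0.68 and -0.08 in the other pairs. H2-Eb1 was higher in 15o by 0.85 and in 6d by 0.33, and its differences in 19n and 30o were -0.47 and -0.09. In each of these genes 15o gave the highest and 19n the lowest difference. H2-Aa also had its highest difference in 15o (9.64 with progesterone against 8.94) and was lower in 3 of 4 pairs. Its lowest difference was in 6d (9.38 against 9.64) and not in 19n (8.34 against 8.56).

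The mean log2 differences were 0.16 for H2-Ab1 probe 1 (95% interval -0.33 to 0.65), 0.16 for H2-Eb1 (-0.26 to 0.57), 0.02 for H2-Aa (-0.33 to 0.37) and -0.06 for Cd74 probe 2 (-0.47 to 0.34). Without 15o all 7 probes of the class II chains and Cd74 were below 0, from -0.30 to -0.08, and without 19n all 7 were above 0, from 0.10 to 0.36, with lowest adjusted p-values of 0.896 and 0.999 (limma). Hence the sign of the class II difference at 2 h rested on which pair was left out. In the same samples the smooth muscle score was -1.43 in the 15o control against -0.14 in its partner, and -0.95 in the 19n progesterone sample against 0.03 in its control. The score of antigen-presenting cells was -0.21 and 0.17 in the 15o control and progesterone sample, and 0.00 and -0.02 in those of 19n.

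**Figure D4:**
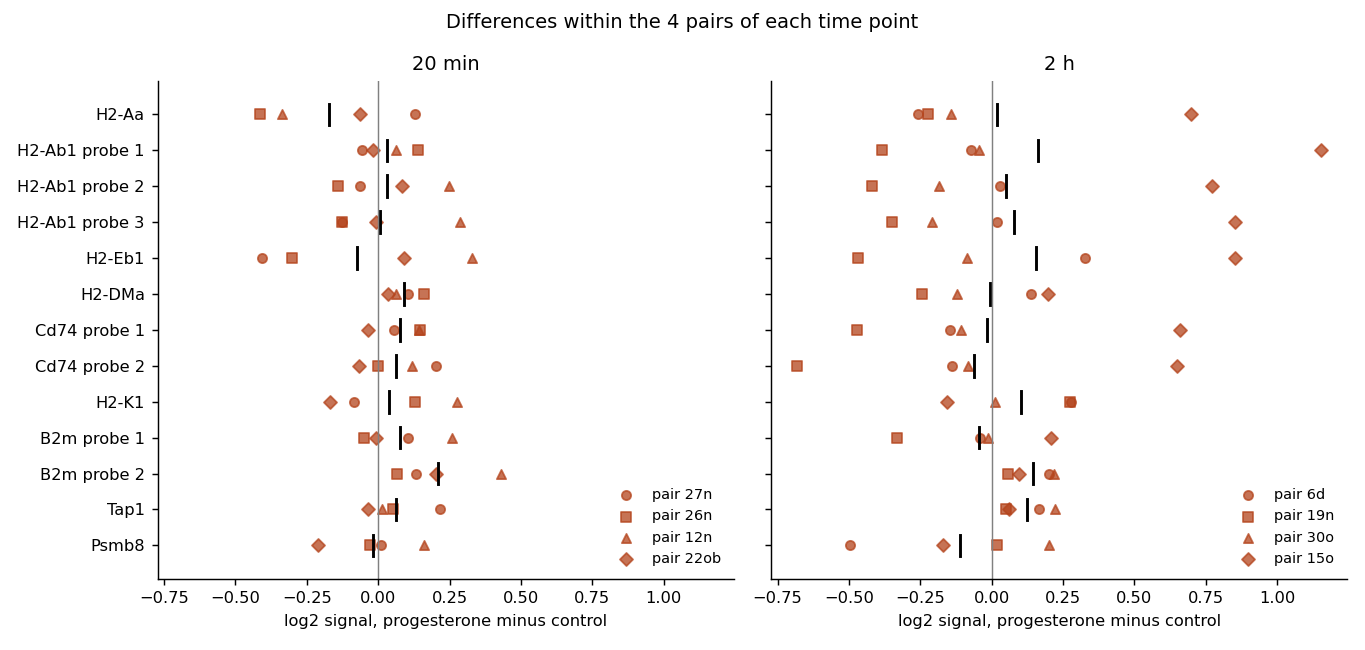
Progesterone minus control in log2 units (horizontal axes) for the 13 probes at 20 min and at 2 h, with 1 symbol per pair and a black bar at the mean of the 4 pairs. At 2 h the class II chains and Cd74 spread widely, with 15o far above 0 and 19n below it, and at 20 min they lie closer to 0.

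On the class I side, B2m probe 2 was higher at 2 h in 4 of 4 pairs (12.93, 12.67, 12.56 and 12.78 with progesterone against 12.72, 12.61, 12.34 and 12.69 in the controls), with a log2 difference of 0.14 (95% interval -0.01 to 0.30). B2m probe 1 went the other way, at -0.04 (-0.26 to 0.17), lower in 3 of 4 pairs. Tap1 read 7.52, 7.47, 7.27 and 7.24 in the controls and 7.69, 7.52, 7.49 and 7.30 with progesterone, higher in 4 of 4 pairs by 0.12 (95% interval -0.03 to 0.28). These 2 of 13 probes stand beside 5.03% of all probes that were higher in all 4 pairs, and 0 of 13 were lower in all 4, beside 5.42%. H2-K1 differed by 0.10 (95% interval -0.11 to 0.31) and Psmb8 by -0.11 (-0.36 to 0.14). When the progesterone effect at 2 h was set against that at 20 min, 0 of 13 probes were called, with a lowest adjusted p of 0.999 (limma, 16 arrays, 8 pair blocks), against 0.00594% of all probes, and 699 of them had an unadjusted p under 0.05.

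Between the times, B2m was lower at 2 h, and no class II probe passed the test in the fit reported here, though H2-DMa did under other scalings. In the control arm 2 of 13 member probes were called, here with an adjusted p at or under 0.05, B2m probe 2 lower and Psmb8 higher at 2 h, while 11.3% of all probes were called. Their groups did not overlap, as was so for 16.7% of all probes. B2m probe 2 read 13.04, 13.10, 12.80 and 13.10 at 20 min and 12.72, 12.61, 12.34 and 12.69 at 2 h, with all 2 h values below all 20 min values. It fell by 0.42 on the log2 scale, from 13.01 ± 0.14 to 12.59 ± 0.17 (SD, n = 4, SE of the difference 0.10, limma adjusted p = 0.0287). Probe 1 of the same gene went from 12.92 ± 0.12 to 12.65 ± 0.17 (difference -0.27, limma adjusted p = 0.112).

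Psmb8 read 7.33, 7.23, 7.19 and 7.35 in the 20 min controls and 7.73, 7.47, 7.61 and 7.45 in the 2 h controls, so that every 2 h value was above every 20 min value. It rose by 0.29 (SE 0.08, limma adjusted p = 0.0440). Both calls were close to the threshold. That of B2m probe 2 was lost without 27n, 26n, 22ob, 19n or 30o, with adjusted p-values of 0.0721, 0.0767, 0.0767, 0.0719 and 0.0593 (limma). The differences there were -0.41, -0.39, -0.39, -0.42 and -0.33, against -0.42 as reported. That of Psmb8 was lost without any one of 27n, 26n, 12n, 22ob, 6d, 19n and 30o, with adjusted p-values of 0.0623 to 0.108 (limma). Its differences there were 0.23 to 0.32. Over all the other 16 settings Psmb8 differed by between 0.09, without normalization between arrays, and 0.67. Other settings ended the calls too. For B2m probe 2 these were no normalization (difference -0.49, limma adjusted p = 0.0529), median centring (-0.37, 0.0523) and neqc background correction (-0.42, 0.0812). For Psmb8 they were no normalization (0.09, limma adjusted p = 0.613), median centring (0.21, 0.0798) and pairs as a random block over 16 arrays (0.29, 0.0966).

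In the control arm Tap1 differed by 0.17 (95% interval -0.02 to 0.35, adjusted p = 0.257 in limma), and by -0.02 to 0.43 over the other 16 settings. H2-DMa differed by -0.12 (-0.30 to 0.06), which became a call with median centring (-0.26, limma adjusted p = 0.0365). The class II chains and Cd74 differed by -0.17 to 0.05, with a lowest adjusted p of 0.688 (limma).

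In the progesterone arm 2 of 13 probes were called, both of B2m, while 15% of all probes were called. Probe 1 fell by 0.39, from 12.92, 12.93, 13.09 and 13.06 at 20 min to 12.70, 12.52, 12.48 and 12.73 at 2 h (SE 0.08, limma adjusted p = 0.0092). Probe 2 fell by 0.48, from 13.22 ± 0.06 to 12.74 ± 0.16 (SD, n = 4, SE of the difference 0.08, limma adjusted p = 0.0042). Both held with each single array left out in turn, and with neqc background correction the call of probe 1 was lost (-0.40, limma adjusted p = 0.0569). For 3 of 13 probes, these and H2-DMa, the groups did not overlap, against 19.1% of all probes.

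H2-DMa read 8.30, 8.06, 8.04 and 8.02 at 20 min and 8.02, 7.74, 7.83 and 7.97 at 2 h in the progesterone arm, with a difference of -0.22 (limma adjusted p = 0.133). It was called lower without normalization (-0.59, limma adjusted p = 0.0016) and with median centring (-0.44, limma adjusted p = 0.0036). Tap1 differed by 0.23 (95% interval 0.03 to 0.42, adjusted p = 0.115 in limma) and passed the threshold without the 15o sample (0.29, adjusted p = 0.0457). Psmb8 differed by 0.20 (limma adjusted p = 0.335). Over the other 16 settings Tap1 differed by -0.02 to 0.54 and Psmb8 by -0.04 to 0.45. The class II chains and Cd74 differed by -0.09 to 0.22, with a lowest adjusted p of 0.645 (limma).

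**Figure D5:**
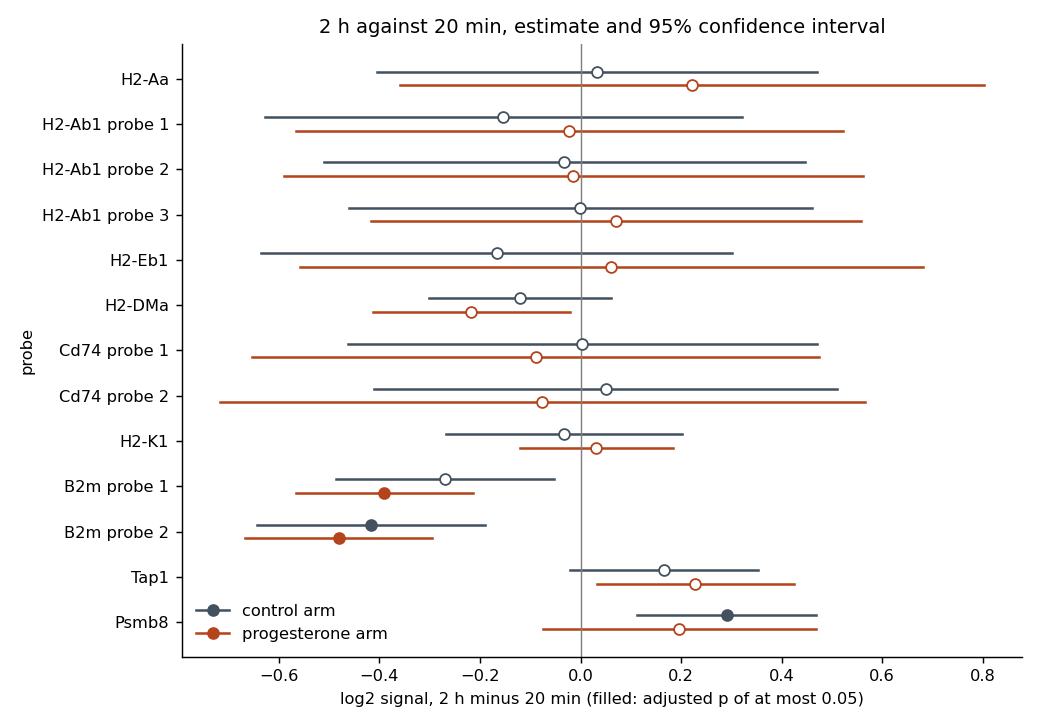
Log2 signal at 2 h minus that at 20 min (horizontal axis) with 95% intervals from limma for the 13 probes in the control arm and in the progesterone arm, filled where the adjusted p was at or under 0.05. The B2m probes lie below 0 in both arms (-0.27 and -0.42, then -0.39 and -0.48), Psmb8 and Tap1 lie above 0, and the intervals of the class II chains and Cd74 are wide and cross 0.

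The other genes of the pathway were read from lists chosen by function. In both progesterone comparisons 0 genes of any list were called. Of 29 kept interferon response genes the smallest p at 20 min was that of Ifngr2, the signalling chain of the interferon-gamma receptor, at -0.29 and lower in 4 of 4 pairs (unadjusted p = 0.0030, limma adjusted p = 0.948), followed by the immunity-related GTPase Igtp at -0.20. At 2 h it was Irf7 at 0.25 and Irf9 at 0.16, both interferon regulatory factors (limma adjusted p = 0.9997). Other class II genes came to -0.18 for Rfxap, a subunit of the factor that binds class II promoters, and 0.09 for Lgmn, a lysosomal protease, at 20 min, and to -0.10 for H2-Ob and 0.11 for Ctsl, cathepsin L, at 2 h. Other class I genes came to -0.13 for H2-T23 and -0.11 for H2-M3 at 20 min and to 0.09 for H2-M3 and 0.08 for Cd1d1 at 2 h. In peptide supply, Tapbp, the bridge between class I and the transporter, was at -0.17 and Psme2, a proteasome activator, at -0.13 at 20 min, and at 2 h Psme2 was at 0.09 and Tapbpl at 0.09.

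Between 20 min and 2 h genes of the interferon response list were called in both arms. In the control arm 10 of its 29 genes rose and 1 fell (37.9% called, against 11.3% of all probes), with a median of 0.21 against -0.01 over all probes. In the progesterone arm 10 rose and 1 fell (37.9%, against 15%), with a median of 0.28 against -0.01. The distance between these shares depended on the scaling, since with progesterone 41.4% of the list against 39.5% of all probes were called without normalization and 34.5% against 29.3% with median centring. In the controls they were 20.7% against 10.8% and 24.1% against 12.5%. Gbp2, a guanylate-binding protein induced by interferon, rose by 2.28 in the controls, from 10.01 ± 0.18 to 12.28 ± 0.25 (SD, n = 4), and by 2.19 with progesterone. Cxcl10, a chemokine that draws T cells, rose by 1.64 and 1.80, and with neqc by 2.68 and 2.96. Ifi47 and Irgm1, GTPases of the same response, rose by 1.41 and 0.98 in the controls and by 1.57 and 0.87 with progesterone. Jak2, a tyrosine kinase bound to cytokine receptors, rose by 0.66 in the controls and by 0.59 with progesterone. In the controls its call was lost with median centring (0.49, limma adjusted p = 0.102) and without normalization (0.38, limma adjusted p = 0.249). With progesterone it was lost without normalization (0.21, limma adjusted p = 0.162). Igtp rose by 0.86 and 0.91, a call lost in the controls without normalization (0.57, limma adjusted p = 0.0591). Ifngr1 fell by 0.33 and 0.39. Under the other settings and with single arrays left out, 5 to 14 genes of the list rose and 1 fell in the controls, and 7 to 12 rose and 1 to 5 fell with progesterone. Without normalization 5 rose and 1 fell in the controls and 7 rose and 5 fell with progesterone, and 6 rose in the controls with median centring or without the 26n control. The called genes kept their direction under each scaling.

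Among the 9 kept genes of the other class II list 2 were called in the controls (22.2%, against 11.3% of all probes) and 1 with progesterone (11.1%, against 15%), so these shares rest on 1 or 2 genes. Ctsl rose by 0.38 (limma adjusted p = 0.0306) and Lgmn by 0.40 (limma adjusted p = 0.0399) in the controls, and Ctsl by 0.51 with progesterone (limma adjusted p = 0.0069). The 10 kept genes of the other class I list include H2-Ke6, a dehydrogenase gene named for its place on the chromosome and not a class I gene. Of these 10, 2 were called in the controls (20%, against 11.3%) and 0 with progesterone. The 2 were H2-Q8, with a rise of 0.36, and H2-Q7, with a rise of 0.27. These class I copies are alike in sequence, and whether the probes tell them apart was not tested. Of 14 peptide supply genes 0 were called in the controls, and 1 with progesterone (7.14%, against 15%), Psme2 with a rise of 0.38. Without normalization between arrays H2-Q7 and Psme2 were both at -0.03, and the other calls named here were lost too. In their place, with progesterone, 4 genes of the peptide supply list, 3 of the class I list and 1 of the class II list were called lower. There 0 were called higher, and 39.5% of all probes were called. In the controls 1 peptide supply gene was called lower. Median centring also ended the calls of Ctsl, Lgmn, H2-Q7 (0.08) and H2-Q8 in the controls and of Psme2 (0.11), but not that of Ctsl with progesterone (0.39). With neqc Lgmn (0.45), H2-Q7 (0.38) and Psme2 (0.45) lost their calls. Ctsl then rose by 0.83 in the controls and 1.13 with progesterone, and H2-Q8 by 0.83 in the controls. Single controls also decided these calls: in the controls both Ctsl and Lgmn lost theirs without 26n, 22ob, 19n or 30o, Ctsl also without 27n, and Lgmn also without 12n or 15o. H2-Q8 lost its call without 27n, 26n, 19n or 30o, and H2-Q7 without any one of the 8 controls. With progesterone Ctsl kept its call with each array left out, and Psme2 lost it without 27n, 12n, 22ob, 19n or 30o.

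Markers of leukocytes that make class II were read in the same way. Of 21 antigen-presenting cell marker symbols, with lysozyme under several, 3 were called in the controls (14.3%, against 11.3% of all probes). Cd14 rose by 0.98, Cd68 by 0.61 and Cd86 by 0.87. With progesterone 5 were called (23.8%, against 15%): Cd14, Cd86, Cd68 and Cd83 rose by 1.25, 0.81, 0.80 and 0.50, and Mertk fell by 0.31. The balance of these calls depended on the scaling, since without normalization 2 rose and 4 fell in the controls and 3 rose and 6 fell with progesterone, and with median centring 3 rose and 3 fell with progesterone. The call of Cd68 in the controls was lost without normalization (0.33, limma adjusted p = 0.174), and that of Cd86 without 26n, 19n or 30o. With neqc Cd86 rose by 1.59 in the controls and 1.51 with progesterone. Cd68 then rose by 1.04 and 1.33, and Cd14 by 1.08 and 1.38. With progesterone, Cd83 lost its call without normalization, with median centring and without 27n, 22ob or 30o, and Mertk without 27n, 12n, 22ob, 19n or 30o. Of 11 pan-leukocyte markers 0 were called in the controls, and Coro1a fell by 0.32 with progesterone, a call lost without 27n, 26n, 22ob, 19n or 15o. Secretory epithelium markers rose in 4 of 8 genes in each arm (50%), against 11.3% and 15% of all probes, and without normalization 0 were called in the controls and 2 with progesterone. Of 8 smooth muscle markers 7 were lower at 2 h in each arm, with medians of -0.52 in the controls and -0.64 with progesterone against -0.01 over all probes, and 1 was called, Lmod1, which fell with progesterone by 0.76. Single arrays carried much of this. Without the 15o control 5 of 8 were lower in the controls, with a median of -0.20. Without the 19n progesterone sample 6 of 8 were lower, with a median of -0.44. Leaving out 6d moved the values the other way. Without its control 8 of 8 were lower in the controls, with a median of -0.74 and 0 called. Without its progesterone sample 8 of 8 were lower in that arm, with a median of -0.84 and 5 called. Without normalization 5 were called lower with progesterone and 1 in the controls, and 3 with progesterone under median centring. These markers differ between the same groups as B2m and Psmb8, and their part in those differences was not tested.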

How the data were processed

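Illumina MouseRef-8 v2 BeadChips measured the RNA of 16 pools of mouse fallopian tubes. The authors deposited the signal intensity of each probe and array before background subtraction and normalization, with a detection p-value, and 0 columns of these lacked a sample. Per the methods, chips were read on an iScan and probes summarized in GenomeStudio. The table gives no depth, and the number of arrays limits the precision.

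Quantile normalization with limma 3.58.1 (R 4.3.3) was followed by log2 conversion, and probes with a detection p under 0.5 in at least 13 of 16 arrays were kept. Within each time, lmFit and eBayes compared progesterone with control, with pairs as fixed blocks and a threshold of 0.20 on the p adjusted by Benjamini-Hochberg over all kept probes, after the paired test and the q of 20% of the methods. The 2 effects were compared in 1 fit over 16 arrays with 8 pair blocks. Times were compared within an arm at 0.05. The functions were tested on simulated data.

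Pairing follows the codes in the labels and the paired test of the methods. The correlation of deviations from the group means was 0.45 for the same code and -0.15 for other codes at 20 min, and 0.29 and -0.097 at 2 h, where 19n gave 0.00049. The methods place one tube of each mouse in each arm and also 6 tubes of 3 animals in each sample, and both cannot hold for a sample of 1 arm.

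All probes of the genes examined are named. Of the other lists, the up to 5 called genes with the smallest p per comparison are named, or, failing a call, the 2 of smallest p, with the brightest kept probe of a gene standing for it. Called marker genes of the antigen-presenting cell, pan-leukocyte and smooth muscle lists, the markers of tissue identity, and Ifngr1 as the 1 called fall of the interferon list, were named after their values were seen. So were Jak2 and Igtp in the arm where other genes had a smaller p. Scores are means over a list's genes. The genes and lists were chosen with earlier results of these data known. Alternatives were no normalization between arrays, median centring, normexp background correction (neqc, offset 16), a stricter filter (detection p under 0.05 in at least 4 arrays) and no filter, other uses of the pair block, a leukocyte score as covariate, paired SAM and each array or pair left out. A smooth muscle score as covariate, and spread and likeness without 2 pairs, were chosen after seeing the data. Promoter sequences come from RefSeq.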

Additional observations from a re-analysis of the deposited data

Results flagged for a closer look

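Of 52 sets of 4 arrays (13 probes in 4 groups), 5 had a highest value set apart from the others, with a gap over the range above Dixon's 95% critical value, where chance gives about 2.6 at 1 in 20. In pair 27n these were H2-Aa in the 20 min control at 9.22 (next highest 9.04), H2-Eb1 in the same control at 10.25 (next 9.55), H2-DMa in the 20 min progesterone sample at 8.30 (next 8.06) and Cd74 probe 2 in that sample at 11.18 (next 10.61). These 4 come from 1 pair, and their probes moved together over all 16 arrays. In pair 12n H2-K1 stood at 7.35 in the 20 min progesterone sample (next 7.17).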

How the results depend on the processing

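Among the values of single member probes under other settings, 913 kept their side of the threshold, 19 lost a call and 4 gained one, and no called value changed sign. The sign changed, in uncalled values alone, in 16 of all 156 values for progesterone at 20 min, 19 of 156 at 2 h, 18 of 208 for the difference of effects, 30 of 208 for time in the controls and 32 of 208 for time with progesterone, where the last 2 totals include 15 and 34 called values. Without normalization the median of all probes shifted to 0.13 and 0.06 in the progesterone comparisons at 20 min and 2 h, and to -0.17 and -0.23 for time in the controls and with progesterone, so values there are to be read against these shifts. The number of member probes called for time in the controls, 2 as reported, was 0 without normalization, 1 with median centring, 1 with neqc and 1 with the pair as a random replicate block over 16 arrays, and 0 to 2 with single arrays left out. For time with progesterone, also 2, it was 1 to 3 under other settings, 1 with neqc, and 2 to 3 with single arrays left out. With no replicate block and with paired SAM 0 members were called for progesterone at either time.

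Over all probes, the 1911 calls for time in the controls ranged from 1164 (without the 19n control) to 1994 with single arrays left out, and were 1268 without the 30o control. The 2524 calls for time with progesterone became 6654 without normalization (386 of them higher) and 4931 with median centring (752 higher), against 1212 higher as reported, and ranged from 1696 to 2874 with single arrays left out. For progesterone at 2 h (1 call) the counts were 0 without normalization, with median centring, with no filter and with the leukocyte score, 3 with the stricter filter, 18 with the smooth muscle score, 17 with paired SAM, and 0 to 12 with single pairs left out, 12 being without 15o. At 20 min paired SAM gave 1 call against 0. The difference of effects (1 call) gave 0 without normalization, with median centring and with no filter, 9 with the smooth muscle score, and 0 to 31 with single pairs left out, 31 being without 15o. The cause of these changes was not tested.

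The call of B2m probe 2 in the controls was lost without normalization (-0.49, limma adjusted p = 0.0529), with median centring (-0.37, 0.0523) and with neqc (-0.42, 0.0812). That of Psmb8 in the controls was lost without normalization (0.09, limma adjusted p = 0.613), with median centring (0.21, 0.0798) and with the random block (0.29, 0.0966). That of B2m probe 1 with progesterone was lost with neqc (-0.40, limma adjusted p = 0.0569). H2-DMa was called lower at 2 h with median centring in the controls (-0.26) and in the progesterone arm without normalization (-0.59) and with median centring (-0.44).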
